A study of Mus musculus with 24 samples.

Results

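The comparison set the lungs of 6 AIRmax mice against those of 6 AIRmin mice, all given saline. These 12 mice were taken from the 24 of the series by the line and treatment in their labels, with 3 males and 3 females of each line. The saline mice received 2 intraperitoneal injections 48 h apart and were killed 21 days later. The same schedule with urethane at 1 mg per g of body weight was given to 6 other mice of each line, which share the fit. Their line difference is given here in counts and for some of the genes that differed in saline mice. RNA came from normal lung parenchyma and was hybridised to Illumina bead arrays, 1 mouse per array. Each value is the log2 of the deposited signal intensity, and differences are AIRmax minus AIRmin on that scale.

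AIRmax and AIRmin are mouse lines bred in opposite directions from a mixed founder population for a strong or a weak acute inflammatory reaction, and they also differ in how readily lung tumours form. They are not inbred strains, so mice of a line can differ from each other in the alleles they carry. Among gene families that vary between mouse stocks, the major histocompatibility complex (MHC) encodes the molecules that show peptides to T cells. Its class II molecules, I-A and I-E, are pairs of an alpha and a beta chain on antigen-presenting cells, and the same stretch of genome holds subunits of the immunoproteasome, which cuts proteins into peptides.

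Lung identity was alike in the lines. The surfactant gene Sftpc had log2 signals of 15.97 to 16.08 in AIRmax and 15.91 to 16.01 in AIRmin mice, the alveolar type 1 gene Ager 15.79 to 15.94 and 15.86 to 15.96, and the club cell gene Scgb1a1 16.04 to 16.08 and 16 to 16.06. All 3 lie near the top of the signal range, where arrays lose sensitivity to differences. None of the 15 measured alveolar type 2, 8 alveolar type 1, 11 airway secretory or 14 ciliated cell genes passed the test.

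Transcripts of tissues other than lung parenchyma separated most of the AIRmin mice from the rest. The score of a mouse for a list averages, over the listed genes, how far its log2 signal lies from the gene's median in all 24 mice. For 39 genes of stratified squamous epithelium, the lining of skin and oesophagus, the score was 2.13 to 2.98 in 5 AIRmin mice and -0.16 in AIRmin male mouse 18, against -0.20 to 0.62 in AIRmax mice. For 27 skeletal muscle genes it was 1.00 to 1.68 in the same 5 AIRmin mice, -1.21 in mouse 18, and -1.40 to 0.045 in AIRmax mice. Of the squamous genes, 36 to 39 were above background in the 5 AIRmin mice, 24 in mouse 18, 36 in AIRmax male mouse 9 and 23 to 26 in the other AIRmax mice. Above background means above a log2 signal of 7.9, a limit taken from the dimmest values. The part of these transcripts in other results was not tested directly, so values that bear on it, mouse 18 among them, stand beside some of the results. Separately, AIRmin mouse 20, labelled female, had the signals of a male at Xist (7.91) and Ddx3y (12.80), and it stayed under its label.

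**Figure D1:**
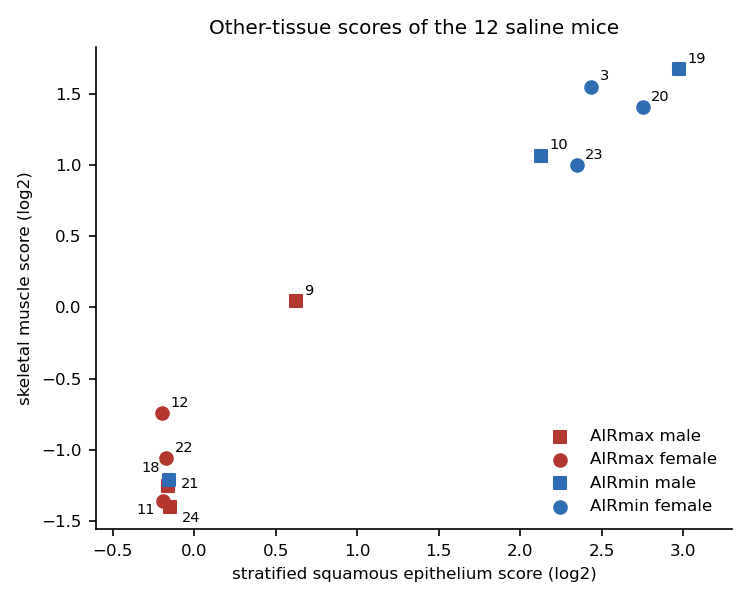
Each point is a saline mouse, with its number. The x axis is the score of 39 stratified squamous epithelium genes and the y axis the score of 27 skeletal muscle genes, both in log2 units. The 5 AIRmin mice at the upper right score 2.13 or more for squamous genes, while AIRmin mouse 18 lies among the AIRmax mice and AIRmax mouse 9 lies between the sets.

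Of 13325 tested genes, each read by its brightest probe, 940 differed between the lines at a limma p under 0.05 after Benjamini-Hochberg adjustment (7.05%), which is termed called below. In AIRmax 432 of them were higher and 508 lower. Differences above 2 in size were mostly lower in AIRmax, with 66 against 14 higher. The 6 AIRmax and 6 AIRmin values did not overlap for 448 of all tested genes (3.36%), and 366 of these were called. In the urethane mice, which are other animals, 842 of the 940 differences had the same sign and 272 were called in the same direction, 144 higher and 128 lower, where 3.84% of all tested genes were called in urethane mice. Across all tested genes, 2.04% were called in the same direction under both treatments. The 2 treatments share the estimate of the spread, so their calls are not fully independent. How many of all tested genes had the same sign under both treatments was not counted.

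A fit that carried the squamous and muscle scores as covariates left 172 of the 940 called in the same direction, 88 higher and 84 lower. Of all tested genes, 200 were called in that fit (1.5%). In saline mice the scores nearly coincide with line, so score and line cannot be fully told apart there. For 165 of these 172 genes mouse 18 lay outside the AIRmax range on the AIRmin side. Of the other 768 called genes it did so for 474, and of the 43 called squamous or muscle genes for 2. None of those 43 was called in urethane mice. Mouse 18 is the only AIRmin saline mouse with both scores in the AIRmax range, so it weighs in that fit. The count of 165 is thus partly set by the fit and is no separate check. The scores average the listed genes themselves, so the count of 2 among the 43 follows from the low scores of mouse 18. For how many of all tested genes mouse 18 lay outside the AIRmax range was not counted.

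**Figure D2:**
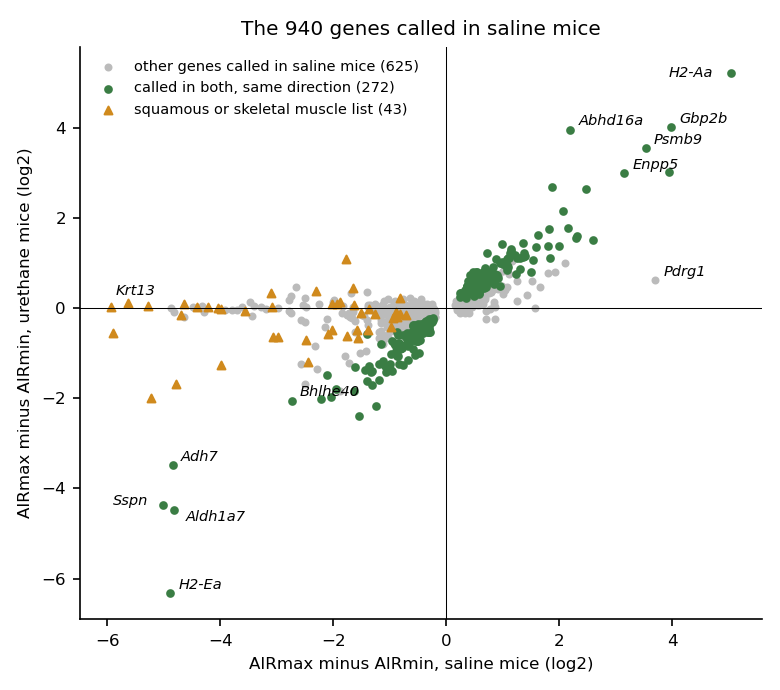
Each point is 1 of the 940 genes called in saline mice. The x axis is the line difference in saline mice and the y axis the line difference in urethane mice (AIRmax minus AIRmin, log2). The 272 genes called in both lie along the diagonal from H2-Aa to Aldh1a7, and the 43 squamous and muscle genes spread along the left of the x axis with urethane differences nearer 0.

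The largest positive difference was in the MHC class II region. H2-Aa, the alpha chain of I-A, had log2 signals of 12.58, 13.57 and 14.47 (lowest, median, highest) in AIRmax and 8.28, 8.46 and 8.65 in AIRmin mice. The sets were far apart, with mouse 18 at 8.40, and the difference was 5.04 ± 0.27 (SE, n = 6 and 6, adjusted p = 4.35e-10), a 33.0-fold higher signal in AIRmax. Psmb9, a catalytic subunit of the immunoproteasome, ran from 12.04 through 13.04 to 13.80 in AIRmax and from 8.94 through 9.55 to 9.91 in AIRmin mice. It differed by 3.53 ± 0.26 with no overlap (adjusted p = 6.96e-08). H2-Ob, the beta chain of the inhibitor H2-O that restrains class II peptide loading in B cells, was 9.23, 10.51 and 11 in AIRmax and 7.11, 8.01 and 8.41 in AIRmin mice, where 4 of 6 were above background. Its difference was 2.47 ± 0.26 (adjusted p = 8.38e-06), and mouse 18 was the lowest of all.

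These 3 genes lie within 7 consecutive tested genes and rose in AIRmax under both treatments, which is why their promoters are shown. The 250 bases before the start of each gene are given on the gene's strand from RefSeq (mouse build GRCm38.p6), which is the sequence of the reference strain and not of the AIR lines. Capitals mark GATTGG, the core of the Y box, an element of class II promoters that is read by NF-Y. Either strand was searched and no other motif. The lines are H2-Aa at chr17:34287824-34288073 (minus strand), H2-Ob at chr17:34238655-34238904 (plus strand) and Psmb9 at chr17:34187331-34187580 (minus strand).
H2-Aa: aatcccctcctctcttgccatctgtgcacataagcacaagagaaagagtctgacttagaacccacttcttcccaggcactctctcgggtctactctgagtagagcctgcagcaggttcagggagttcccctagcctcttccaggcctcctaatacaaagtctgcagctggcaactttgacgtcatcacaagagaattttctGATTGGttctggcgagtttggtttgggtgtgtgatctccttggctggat
H2-Ob: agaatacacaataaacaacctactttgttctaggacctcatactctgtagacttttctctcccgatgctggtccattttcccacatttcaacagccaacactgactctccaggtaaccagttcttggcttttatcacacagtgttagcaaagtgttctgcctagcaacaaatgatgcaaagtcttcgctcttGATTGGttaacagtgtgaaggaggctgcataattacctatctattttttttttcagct
Psmb9: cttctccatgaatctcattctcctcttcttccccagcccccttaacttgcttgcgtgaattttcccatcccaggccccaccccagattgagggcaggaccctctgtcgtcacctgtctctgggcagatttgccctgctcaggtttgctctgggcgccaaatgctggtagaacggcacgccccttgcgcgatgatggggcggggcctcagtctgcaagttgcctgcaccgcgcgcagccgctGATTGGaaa
The motif began 49, 58 and 9 bases before the start of H2-Aa, H2-Ob and Psmb9. Of all 32851 promoter windows of this length 14.6% held it. Among 10 genes of the class II list with a window, 8 held it, called or not. A match is a description of these letters and says nothing about binding in these lungs.

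Several genes beside these differed less, though H2-Ea and 1 probe of H2-Ab1, described below, did not. Between Psmb9 and H2-Ob in gene order, the peptide transporter Tap1 differed by 0.21 ± 0.24 (adjusted p = 0.706) and the immunoproteasome subunit Psmb8 by 0.20 ± 0.15 (adjusted p = 0.527). H2-Eb1, the beta chain of I-E, was 14.46 to 15.64 in AIRmax and 13.95 to 15.11 in AIRmin mice, with a difference of 0.36 ± 0.28 (adjusted p = 0.543). Cd74, the invariant chain that escorts class II molecules and is made by the same cells, differed by 0.06 ± 0.05 (adjusted p = 0.58) at signals of 15.85 to 16.07, near the top of the range. H2-Eb2, a further beta chain gene, was higher by 0.55 ± 0.15 (adjusted p = 0.0302). Of 14 measured class II genes 3 were higher and 1 lower, or 28.6% against 7.05% of all genes. The median difference of the 14 was 0.37 where that of all genes was 0.01.

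H2-Ea, the alpha chain of I-E, ran the other way and split the AIRmax mice. It was 15.38 to 15.87 in 5 AIRmin mice and 13.43 in mouse 18. In AIRmax it was 14, 13.30 and 12.55 in mice 11, 22 and 9, and at or below background, at 7.78, 7.55 and 7.41, in mice 21, 12 and 24. The difference over all mice was -4.88 ± 1.14 (adjusted p = 0.0144). H2-Ab1, the beta chain of I-A, had 3 tested probes that disagreed, at 1.11 ± 0.63 (adjusted p = 0.353), 0.19 ± 0.39 (adjusted p = 0.865) and 4.25 ± 0.86 (adjusted p = 0.00528), from the brightest to the dimmest. At its brightest probe mouse 18 stood at 11.45 and the other AIRmin mice at 13.92 to 14.73. H2-Aa, H2-Ob, H2-Ea and Psmb9 had a single tested probe each, and whether a sequence difference between the lines lies under a probe was not tested.

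**Figure D3:**
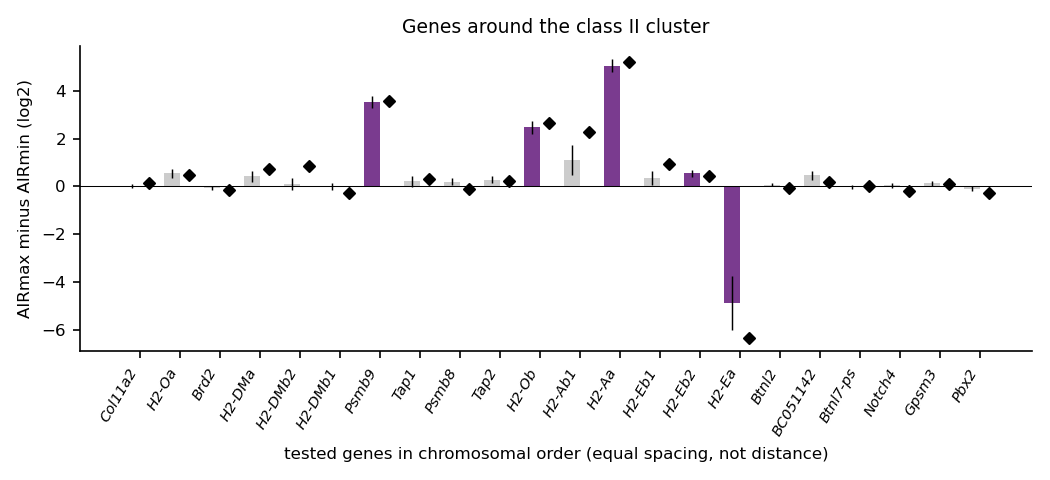
Bars show the line difference in saline mice (log2, error bars SE) of tested genes in chromosomal order around the class II cluster, in purple where called and grey where not. Diamonds show the difference in urethane mice. Large differences stand next to genes whose difference is near 0, and both signs occur.

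Elsewhere in the MHC the class I and class III lists were called at shares near that of all genes. The class I gene H2-Q7 was higher by 1.07 ± 0.25 (adjusted p = 0.0139), 1 of 15 measured class I genes to be called, and mouse 18, at 12.54, lay within the AIRmax range of 12.31 to 13.31. H2-K2, a class I gene outside that list and chosen after its values were seen, was 12.80 to 13.97 in AIRmax and 11.16 to 12.45 in AIRmin mice, a difference of 1.53 ± 0.26 (adjusted p = 0.00111). Wdr46, a ribosome assembly factor, was picked in the same way and exceeded the background limit in all 6 AIRmax mice but in 1 AIRmin mouse, with both of its probes called, at 1.26 ± 0.12 and 1.09 ± 0.14 (adjusted p = 2.36e-06 and 6.46e-05). Of 46 class III region genes 1 was higher and 3 were lower, or 8.7% against 7.05% of all genes. Ly6g6c and Ly6g6e, of the Ly6 family, were lower by 2.79 ± 0.71 and 1.14 ± 0.26 (adjusted p = 0.0229 and 0.0126), and mouse 18, at 9.32 and 8.72, lay within the AIRmax range for both. The third lower gene was Msh5. The higher one, Abhd16a, a lipid hydrolase, was 12.36, 12.58 and 13.15 in AIRmax mice 21, 12 and 24, and 8.31 to 8.56 in AIRmax mice 22, 11 and 9 (2.19 ± 0.65, adjusted p = 0.0461). The 6 AIRmin mice lay at 8.24 to 8.50. The 3 AIRmax mice low for H2-Ea were the 3 high for Abhd16a among saline mice.

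Gbp2b, an interferon-inducible guanylate-binding protein of the Gbp1 type, lies outside the MHC. It had log2 signals of 12.18, 12.95 and 13.50 in AIRmax and 8.22, 8.61 and 10.07 in AIRmin mice. The groups did not overlap and the difference was 3.98 ± 0.32 (adjusted p = 2.24e-07). It was the single called gene among 12 guanylate-binding proteins and interferon GTPases, or 8.33%, near the 7.05% of all genes. The median difference of that list was -0.36. None of 26 type I interferon-stimulated genes was called (median -0.03).

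Of 20 measured aldehyde and alcohol dehydrogenases 3 were lower in AIRmax and 1 was higher, or 20% against 7.05% of all genes. Aldh1a7, an aldehyde dehydrogenase of the retinal dehydrogenase group, was 11.58, 12.56 and 12.78 in AIRmin mice and 7.31, 7.47 and 7.64 in AIRmax mice, none above background. It was at least 21.2-fold lower in AIRmax (adjusted p = 2.12e-11), and mouse 18, at 11.63, was as clear as the rest. Adh7, a class IV alcohol dehydrogenase that oxidises retinol and ethanol, was 11.08, 12.27 and 12.81 in AIRmin mice and at most 7.37 in AIRmax mice. It was at least 17.8-fold lower in AIRmax (adjusted p = 1.93e-05), with mouse 18 the lowest AIRmin saline mouse. Neither gene showed overlap between the saline groups, and each has 1 tested probe. Among urethane mice Adh7 was 7.21, below background, in AIRmin mouse 17 and 10.09 to 12.62 in the other AIRmin mice.

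Other members of these lists split by whether mouse 18 took part. Aldh3a1, an aldehyde dehydrogenase abundant in squamous and corneal epithelium, differed by -1.75 ± 0.48 (adjusted p = 0.0315), but mouse 18, at 12.33, lay within the AIRmax range of 11.62 to 12.69. In urethane mice Aldh3a1 differed by -0.16 (adjusted p = 0.909). Gsta1, a glutathione S-transferase, was not above background in any AIRmax mouse or in mouse 18 (7.61) and reached 9.66 in the other AIRmin mice, so at least 2.03-fold lower in AIRmax (adjusted p = 0.0181). Catalase, Cat, which breaks down hydrogen peroxide, was 13.21 to 13.60 in AIRmax and 12.18 to 12.72 in AIRmin mice, a difference of 0.98 ± 0.11 (adjusted p = 1.06e-05), with mouse 18 the AIRmin mouse nearest to AIRmax. Srxn1, a sulfiredoxin, was higher by 1.37 ± 0.24 at its brightest probe (adjusted p = 0.0014), with mouse 18, at 10.72, inside the AIRmax range. Its other 2 probes differed by 0.92 ± 0.10 and 0.16 ± 0.11 (adjusted p = 8.33e-06 and 0.501). Of 38 glutathione and NRF2 response genes 3 were higher and 6 lower, or 23.7% against 7.05% of all genes. The third higher one was Gpx3, a secreted glutathione peroxidase (0.36 ± 0.08, adjusted p = 0.00842). With both tissue scores as covariates 2 of the 9 called genes of this list stayed called. Nqo1, a quinone reductase, was lower by 0.50 ± 0.13 (adjusted p = 0.0261). Glo1, which detoxifies methylglyoxal, was lower with no overlap, at 12.94 to 13.93 in AIRmax and 14.22 to 14.62 in AIRmin mice (-1.09 ± 0.13, adjusted p = 3.45e-05). Of 21 genes of cytochromes P450 and urethane metabolism 2 were called, or 9.52% against 7.05% of all genes. The carboxylesterase Ces2g was higher by 0.65 ± 0.17 (adjusted p = 0.0261) and Cyp1b1 was lower, at -0.55 ± 0.15 (adjusted p = 0.0293).

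Sspn, sarcospan, a membrane protein of the dystrophin complex, was 11.90, 12.08 and 12.89 in AIRmin mice and not above background in any AIRmax mouse. It was at least 20.5-fold lower in AIRmax (adjusted p = 9.22e-06), and mouse 18, at 11.98, lay with the other AIRmin mice. Fgfr1op2 was 12.38 to 13.22 in AIRmax and 8.49 to 9.19 in AIRmin mice at its brightest probe, a difference of 3.94 ± 0.42 (adjusted p = 8.63e-06), against 0.33 ± 0.08 (adjusted p = 0.0151) at its other probe. Etfrf1, a mitochondrial assembly factor, was higher by 0.52 ± 0.11 (adjusted p = 0.00703) and Lrmp, a lymphoid membrane protein, lower, at -0.43 ± 0.11 (adjusted p = 0.0238). Of these 4 genes, Sspn and Fgfr1op2 were called in urethane mice as well.

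Runs of neighbouring genes, with at least 5 called genes among 10 consecutive tested genes, numbered 17 and held 126 of the called genes. In 13 of them both higher and lower genes occurred. The 21 called genes of the epidermal differentiation complex, which encodes loricrin and the small proline-rich and late cornified envelope proteins of skin, were all lower in AIRmax, and none was called in urethane mice. The run from Alyref to Hexdc had 13 called genes of 26, with 7 higher and 6 lower, and 8 of them were called in urethane mice too. Uts2r, the urotensin receptor, was not above background in any AIRmin mouse, at 7.47 to 7.61, and 9.11 to 10.09 in AIRmax mice, so at least 3.25-fold higher (adjusted p = 1.79e-08).

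**Figure D4:**
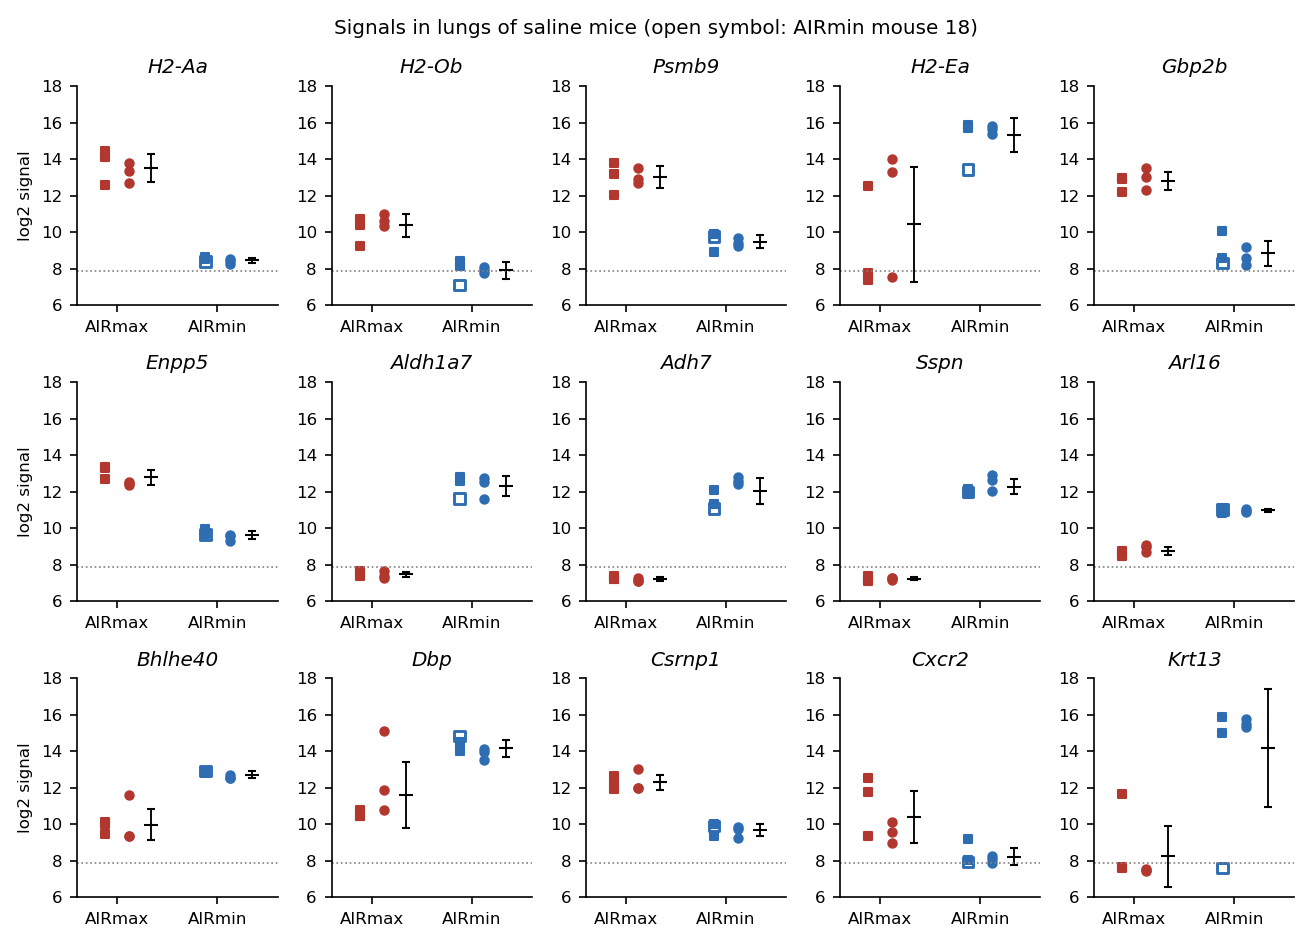
Each panel shows the log2 signal of a gene in the 12 saline mice, with squares for males, circles for females and an open symbol for AIRmin mouse 18. Black marks give the mean and SD of 6 mice, and the dotted line is the background limit of 7.9. Lines do not overlap for H2-Aa, H2-Ob, Psmb9, Gbp2b, Enpp5, Aldh1a7, Adh7, Sspn, Arl16, Bhlhe40 and Csrnp1, while Krt13 puts mouse 18 with the AIRmax mice.

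Of the called genes with no overlap, 131 were also called with both scores as covariates, 70 higher and 61 lower, and 100 of these 131 were called in urethane mice. Enpp5, an ectonucleotide pyrophosphatase family member, had the smallest adjusted p among the named genes. It was 12.35, 12.62 and 13.34 in AIRmax and 9.31, 9.64 and 9.93 in AIRmin mice (3.15 ± 0.13, adjusted p = 7.28e-12). Trappc12, a vesicle tethering factor, was above background in no AIRmin mouse and at least 3.08-fold higher in AIRmax (adjusted p = 2.12e-11). Atp6v1d, a subunit of the proton pump that acidifies lysosomes, was higher by 2.32 ± 0.36 (adjusted p = 0.000527), and Aqr, a splicing helicase, by 2.30 ± 0.37 (adjusted p = 0.000663). For Aqr 5 AIRmin mice lay at 7.57 to 7.75, and mouse 19 at 9.47, and its other probe differed by -0.07 ± 0.10 (adjusted p = 0.788). Rbp7, a retinol-binding protein, was higher by 1.81 ± 0.32 (adjusted p = 0.00193), and Mpg, a DNA glycosylase that removes alkylated bases, was 9.33 to 9.60 in AIRmax and 7.75 to 8.42 in AIRmin mice (1.5 ± 0.15, adjusted p = 5.49e-06). Zfp979, a zinc finger protein, was higher by 1.93 ± 0.25 (adjusted p = 8.06e-05). Parp8, an ADP-ribosyltransferase family member chosen after its values were seen, was higher by 1.38 ± 0.10 (adjusted p = 7.46e-08). Mgll, which releases glycerol and fatty acid from monoglycerides, was chosen likewise and was higher by 1.13 ± 0.15 (adjusted p = 8.06e-05).

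Among the 61 lower genes of this set, Arl16, a small GTPase, was 8.48 to 9.07 in AIRmax and 10.84 to 11.09 in AIRmin mice (-2.22 ± 0.17, adjusted p = 1.07e-07). Vnn3, a vanin family member, differed by -2.11 ± 0.17 (adjusted p = 2.24e-07) and B3galt6, a galactosyltransferase of proteoglycan linker synthesis, by -1.95 ± 0.17 (adjusted p = 9.64e-07). The tetraspanin Tspan8 was 11.32 to 12.42 in AIRmax and 13.16 to 13.73 in AIRmin mice, where mouse 18 was the highest (-1.44 ± 0.13, adjusted p = 1.46e-06). Upk1b, a uroplakin, was lower by 1.37 ± 0.21 (adjusted p = 0.000394) and Cdh16, a cadherin of tubular epithelia, by 1.24 ± 0.26 (adjusted p = 0.0067). For these 6 genes mouse 18 was outside the AIRmax range, which the choice of genes without overlap requires.

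Several markers of cytotoxic leukocytes were higher in AIRmax. Of 13 measured natural killer and cytotoxic cell genes 6 were higher and none lower, 46.2% against 7.05% of all genes, and the median difference was 0.42. The chemokine Ccl5 was 12.26, 13.54 and 14.19 in AIRmax and 11.80, 12.22 and 12.72 in AIRmin mice, with some overlap (1.31 ± 0.22, adjusted p = 0.00138). Cd8b1, a chain of the CD8 coreceptor, was higher by 1.59 ± 0.38 (adjusted p = 0.0156) at its brighter probe and by 0.06 ± 0.38 (adjusted p = 0.958) at the other. Nkg7, a granule protein, was higher by 0.67 ± 0.18 (adjusted p = 0.0261), and Tbx21, the transcription factor T-bet, by 0.60 ± 0.12 (adjusted p = 0.0044). With both tissue scores as covariates 3 of the 6 genes stayed called. The score of this list was 0.41 to 0.68 in the 3 AIRmax females and -0.35 to 0.08 in the 3 AIRmax males, and -0.39 to -0.22 in AIRmin mice. Of 19 T cell genes 1 was called, or 5.26% against 7.05% of all genes. It was the costimulator Icos, at 8.97 to 9.73 in AIRmax and 8.45 to 8.71 in AIRmin mice (0.75 ± 0.12, adjusted p = 0.000715). None of 18 B cell and plasma cell genes was called. In whole lung, fewer cells of a type and less RNA per cell cannot be told apart.

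Neutrophil genes varied widely among the AIRmax mice. Cxcr2, the receptor through which neutrophils follow chemokines, was 8.96, 9.86 and 12.54 in AIRmax and 7.86, 8.09 and 9.18 in AIRmin mice, and was higher by 2.16 ± 0.42 (adjusted p = 0.00394). The highest values, 12.54 and 11.78, came from AIRmax males 24 and 21, and AIRmin mouse 19 overlapped the AIRmax range. Mmp9, a matrix protease stored in neutrophil granules, was higher by 1.17 ± 0.31 (adjusted p = 0.0296). S100a8 and S100a9, the calprotectin subunits, differed by 0.82 ± 0.38 and 0.99 ± 0.49 (adjusted p = 0.239 and 0.275), and the cytokine Il1b by 1.22 ± 0.39 (adjusted p = 0.0698). Each had its highest value in mouse 24, at 16.05, 15.88 and 13.54. Cxcr2 and Mmp9, both higher, were the 2 called of 22 neutrophil and granulocyte genes, or 9.09%, near the 7.05% of all genes called. Of all genes 3.24% were called higher. The median difference of the list was 0.43, where that of all genes was 0.01. Neither gene stayed called with both tissue scores as covariates. The neutrophil score was 1.66 in mouse 24, 0.92 in mouse 21, and -0.23 to 0.35 in the other AIRmax mice, against -0.13 to 0.48 in AIRmin mice.

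Other genes of acute inflammation differed little in saline mice. Of 25 acute inflammatory cytokines and chemokines 1 was called (4% against 7.05% of all genes), Mif, at -0.26 ± 0.07 (adjusted p = 0.0402). Of 33 genes of innate sensing, NF-kB and the inflammasome 2 were called (6.06%). The interleukin-1 receptor Il1r1 was higher by 0.31 ± 0.09 (adjusted p = 0.0401) and the NF-kB subunit Nfkb2 lower, at -0.98 ± 0.20 (adjusted p = 0.0067). In urethane mice these 2 differed by 0.11 and -0.07 (adjusted p = 0.555 and 0.907). The lipopolysaccharide receptor Tlr4 was 9.69 to 10.52 in AIRmax and 9.96 to 10.12 in AIRmin mice (0.19 ± 0.11, adjusted p = 0.352). Slc11a1, the macrophage metal transporter also known as Nramp1, had 4 tested probes, which differed by 0.39 ± 0.18, 0.69 ± 0.20, 0.71 ± 0.21 and 0.57 ± 0.20 (adjusted p = 0.22, 0.0422, 0.0438 and 0.105), so 2 of 4 passed. Itgax, the integrin CD11c of dendritic cells and alveolar macrophages, was above background in no AIRmax mouse at its 1 probe and at 7.95 to 8.29 in AIRmin mice, at least 1.14-fold lower (adjusted p = 0.000124). The keratin Krt79, which alveolar macrophages of the mouse express, was 9.17 to 11.16 in AIRmax and 11.37 to 12.12 in AIRmin mice (-1.63 ± 0.48, adjusted p = 0.0433). Each was the single call of its list, of 15 dendritic cell and 20 macrophage genes (6.67% and 5%, median differences -0.08 and -0.03). Of 11 mast cell, basophil and eosinophil genes 3 were lower in AIRmax, or 27.3% against 3.81% of all genes. The tryptases Tpsab1 and Tpsb2 differed by -0.69 ± 0.15 and -0.69 ± 0.16 (adjusted p = 0.0105 and 0.0144), and the chymase Cma1 by -0.40 ± 0.11 (adjusted p = 0.0342). None of these 3 stayed called with both tissue scores as covariates.

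Clock genes stood out by their size and by 1 mouse. The circadian clock is a loop in which Arntl and Npas2 switch on Dbp and also the Per, Nr1d and Bhlhe40 genes. The products of Per, Nr1d and Bhlhe40 genes then repress the loop, so all these transcripts rise and fall through the day. Bhlhe40 was 12.51, 12.74 and 12.92 in AIRmin mice and 9.35, 9.74 and 11.60 in AIRmax mice, with no overlap (-2.73 ± 0.34, adjusted p = 5.53e-05). Dbp was 13.49 to 14.83 in AIRmin mice and 10.45 to 11.88 in 5 AIRmax mice, but 15.10 in AIRmax female mouse 12 (-2.57 ± 0.51, adjusted p = 0.00504). The repressors Nr1d1 and Nr1d2 differed by -1.45 ± 0.27 and -1.13 ± 0.20 (adjusted p = 0.00237 and 0.00216), and mouse 12 was again the highest AIRmax mouse, at 11.04 and 11.40. Npas2 ran the other way, at 8.38 to 8.85 in 5 AIRmax mice, 7.70 in mouse 12, and above background in no AIRmin mouse, so at least 1.46-fold higher (adjusted p = 0.00228). Arntl, chosen after its values were seen, was 10.60 to 10.79 in 5 AIRmax mice, 8.47 in mouse 12 and 9.18 to 10.35 in AIRmin mice (0.58 ± 0.35, adjusted p = 0.385). Per3, picked likewise, was 10.58 in mouse 12, 8.48 to 9.08 in the other AIRmax mice and 9.01 to 10.05 in AIRmin mice (-0.66 ± 0.29, adjusted p = 0.2). In all 5 of 15 clock genes were called, 1 higher and 4 lower, or 33.3% against 7.05% of all genes. In urethane mice 1 of these 5 was called, Bhlhe40 (-2.05, adjusted p = 0.00124), and Nr1d1 differed by -0.16 (adjusted p = 0.813). The sources used here do not give the hour of death, so line and hour cannot be told apart. Without mouse 12 the difference of Dbp in saline mice was -3.19 and the difference of Nr1d1 in saline mice was -1.74.

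Vessel, lipid and early response lists each held a few calls. The endothelial genes Vwf, von Willebrand factor, Pecam1, a junction protein, and Plvap, of the diaphragms of fenestrae, were higher by 0.53 ± 0.10, 0.43 ± 0.10 and 0.30 ± 0.08 (adjusted p = 0.00268, 0.0119 and 0.0193). They were 3 of 19 in the list, or 15.8% against 3.24% of all genes called higher, and its score was 0.00 to 0.30 in AIRmax and -0.19 to -0.02 in AIRmin mice, nearly apart. None of the 3 genes stayed called with both tissue scores as covariates. Among 26 genes for making cholesterol and fatty acids, 5 were called, each higher (19.2% against 3.24% of all genes called higher). With both tissue scores as covariates 2 of the 5 stayed called. The 5 included Dhcr7, the last enzyme of cholesterol synthesis (0.54 ± 0.12, adjusted p = 0.0133), and the desaturase Fads2 (0.42 ± 0.09, adjusted p = 0.00658). The lipid droplet protein Cidec was higher by 1.67 ± 0.34 (adjusted p = 0.00552), the single call of 14 adipocyte genes (7.14% against 7.05% of all genes). In urethane mice Cidec differed by 0.47 (adjusted p = 0.5). Csrnp1, a nuclear protein induced early after stimulation, was 11.94, 12.08 and 13 in AIRmax and 9.25, 9.79 and 10.01 in AIRmin mice, with no overlap (2.61 ± 0.29, adjusted p = 1.33e-05). Klf2, a transcription factor of endothelium, and Ccn2, a matrix-associated growth factor, were higher by 0.85 ± 0.24 and 0.70 ± 0.17 (adjusted p = 0.0412 and 0.0197). With Egr2, which was lower, these made 4 of 24 immediate early genes, or 16.7% against 7.05% of all genes. With both tissue scores as covariates 1 of the 4 stayed called. In urethane mice 1 of the 4 was called, Csrnp1 (1.51, adjusted p = 0.00449). There Klf2 differed by 0.07 and Ccn2 by -0.06 (adjusted p = 0.929 and 0.908).

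**Figure D5:**
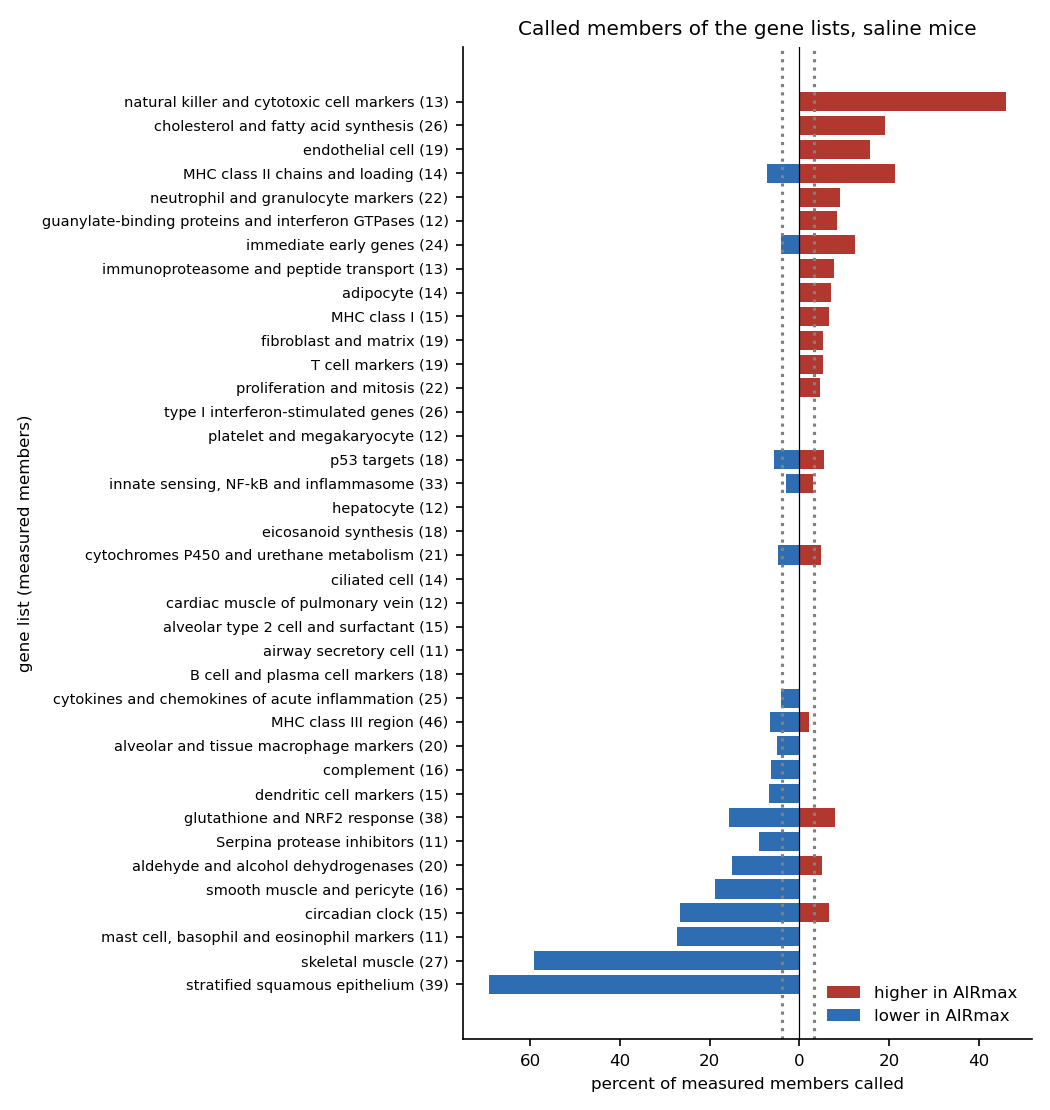
Bars give the percent of each list's measured genes (number in brackets) that were called in saline mice, to the right where higher in AIRmax and to the left where lower. Lists with at least 10 measured genes are drawn, and dotted lines mark the percent of all tested genes called higher (3.24) and lower (3.81). Natural killer genes reach 46.2% on the right, and squamous (69.2%) and skeletal muscle (59.3%) genes reach farthest on the left.

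The most negative differences in saline mice belonged to squamous epithelium and muscle, and mouse 18 lacked them. Krt13, a keratin of non-cornified squamous lining, was 14.98 to 15.88 in 5 AIRmin mice and 7.60 in mouse 18. It was 7.45 to 7.67 in 5 AIRmax mice and 11.63 in mouse 9, which gave -5.93 ± 1.71 (adjusted p = 0.0409). Lor, loricrin of the cornified envelope, was 15.80 to 16.05 in 5 AIRmin mice, 8.33 in mouse 18, 7.62 to 8.27 in 5 AIRmax mice and 12.75 in mouse 9 (-5.91 ± 1.72, adjusted p = 0.0437). Crct1 and Krt4 followed with -5.28 ± 1.45 and -4.64 ± 1.26 (adjusted p = 0.0327 and 0.0313). Krtdap, a keratinocyte differentiation protein, was above background in 5 AIRmin mice and no AIRmax mouse, at least 40.1-fold lower in AIRmax (adjusted p = 0.0104), and the basal keratin Krt14 differed by -3.99 ± 1.05 (adjusted p = 0.0268). Trp63, the transcription factor p63 of squamous and basal airway cells, was 9.41 to 10.36 in 5 AIRmin mice, and mouse 18, at 8.40, lay just above the AIRmax range of 7.73 to 8.38 (-1.5 ± 0.40, adjusted p = 0.0286). In all 27 of 39 squamous genes were lower and none higher, or 69.2% against 3.81% of all genes called lower. Their list had a median difference of -1.63 in saline and 0.05 in urethane mice.

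Several of the muscle genes were those of fast skeletal fibres. Tnnt3, a troponin T of fast fibres, was 12.07 to 12.98 in 5 AIRmin mice, 9.48 in mouse 18 and 8.56, 8.67 and 10.25 in AIRmax mice, where mouse 9 was the highest (-3.07 ± 0.72, adjusted p = 0.0155). Myh8, a perinatal myosin heavy chain, differed by -5.22 ± 1.45, the troponin C gene Tnnc2 by -4.78 ± 1.39 and the myosin light chain Mylpf by -3.99 ± 1.12 (adjusted p = 0.0346, 0.0427 and 0.036). In these 4 genes mouse 18 lay within the AIRmax range and the other 5 AIRmin mice above it. Of 27 skeletal muscle genes 16 were lower and none higher, or 59.3% against 3.81% of all genes called lower. The median difference of the list was -1.58 in saline and -0.48 in urethane mice. The 12 cardiac muscle and 12 hepatocyte genes held no call, with scores of -0.50 to 0.51 and -0.02 to 0.19 in AIRmax mice and -0.23 to 0.86 and -0.05 to 0.45 in AIRmin mice.

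When the 9 mice of both treatments whose squamous score was above 1 were left out, the AIRmin saline group was mouse 18 alone, and its spread was taken to be that of the other groups. For the line difference in saline mice the fit then called 62 probes, where 1244 (6.72%) were called with all mice, and 41 of the 940 genes in the same direction. Among these were H2-Aa (5.21, adjusted p = 0.000592), Gbp2b (4.39, adjusted p = 0.00141), Enpp5 (3.38, adjusted p = 0.000125), and, lower in AIRmax, Aldh1a7 (adjusted p = 2.47e-08) and Adh7 (adjusted p = 0.000125). H2-Ob, Psmb9, Wdr46, Uts2r, Trappc12, Parp8, Arl16, Vnn3, B3galt6 and Upk1b passed as well, and with the 5 before they kept their call under each alternative that tested them. In an additive fit over both treatments without those 9 mice, an alternative added after the data were seen, 275 of the 940 genes were called in the same direction.

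No gene's line difference was shown to depend on treatment. The interaction of line and treatment gave 0 calls in limma over 18518 probes, with 1166 at an unadjusted p under 0.05 (6.3%) and a lowest adjusted p of 0.524. Among genes with a large difference in saline mice, Pdrg1, a gene regulated by p53 and DNA damage, differed by 3.70 ± 0.94 in saline (adjusted p = 0.0221) and by 0.62 ± 0.94 in urethane mice (adjusted p = 0.794). It was 7.31 to 7.57 in 5 AIRmin saline mice, 11.08 in mouse 18 and 11.17 to 12.22 in AIRmax saline mice. In urethane mice low values occurred in both lines, at 7.45 in an AIRmax and at 7.51 and 7.41 in 2 AIRmin mice. Among urethane mice 2 of each line had a squamous score above 1.

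No line difference was shown to differ between the sexes. The interaction of line and sex in saline mice gave 0 calls in limma, with 1290 of 18518 probes at an unadjusted p under 0.05 (6.97%) and a lowest adjusted p of 0.423. Mouse 20, whose sex genes go against its label, stood among the females here. In males alone the line difference called 371 genes (2.78%) and in females alone 169 (1.27%), each with 3 mice a line. H2-Aa differed by 5.2 in males and 4.88 in females, Enpp5 by 3.36 and 2.95, and Gbp2b by 3.69 and 4.26, each called in both sexes.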

How the data were processed

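Illumina bead arrays measured the lung RNA of 24 mice singly, and groups came from the sample titles. Mouse numbers are separate animals and pair none. The members and gene lists were chosen with earlier results of these data known. The authors deposited linear intensities for 25697 probes, which were analysed here. BeadStudio, without a version, was used per the submitters' processing notes. Sorted values differed by at most 0.871% between arrays, so they were taken as quantile normalized by the authors, which the header of their filtered table states for that table, while the sources used here do not give their background treatment. The other tables hold 72 array columns that no sample label names. They went unused, so slide was not tested as a batch.

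Log2 was taken with no further normalization. The background limit is the upper 0.01 quantile of a background fitted around the mode of all log2 values (7.41, SD 0.213), which gives 7.9 in log2 or an intensity of 239.6. Probes above it on at least 3 arrays were tested, 18518 probes of 13325 genes. A gene is read by its probe with the highest mean. "At least" folds set the brighter group's mean against the limit where the other group lay wholly at or below it. Of the probes 20440 had current symbols, 4123 were updated and 1134 kept the file's name, using a RefSeq gene table of GRCm38.p6 for names and neighbour order only. The 6 genes Dhrs7b, Hgs, Mrpl10, Polr1a, Rbpms and Saraf had probes called in opposite directions and are uncertain.

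Tests used limma 3.58.1 in R 4.3.3 (lmFit, eBayes) with a mean for each of the 8 line, sex and treatment cells, and Benjamini-Hochberg adjustment over all tested probes. Errors are the model's SE. P-values measure the spread between single mice of a line. On simulated data with these probes' spread, 71.5% of 0.5 and 95% of 1 log2 differences were recovered between lines in saline mice, and 39.5% and 92.5% for the interaction with treatment. The precision is limited by the number of arrays. The plan named genes by rule: the 10 largest each way, the 15 largest each way that also passed with the tissue scores and without overlap, up to 4 called members of each list, called members of neighbour runs, and a set of MHC, inflammation, tumour, lung and tissue genes. A selection is printed. Arntl, Gpx3, H2-K2, Mgll, Nqo1, Parp8, Per3, Trp63 and Wdr46 were named after their values were seen. Alternatives were other filters, offset, background correction, priors, array weights, covariates, probe choice and leaving out mice.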

Additional observations from a re-analysis of the deposited data

Results flagged for a closer look

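In groups of 6 mice, a mouse is listed here where its gap to the nearest other mouse, over the range of the group, was above Dixon's critical value. Of 206 groups of values tested 40 met this, where chance gives about 1 in 20, and the genes of a list are not independent. Values are log2 signals, and no cause was tested.

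AIRmin mouse 18 accounted for 16. It was low for Krt13 (7.60), Lor (8.33), Crct1 (7.35), Krtdap (7.48), Krt4 (7.57), Krt14 (7.76), Tnnt3 (9.48), Myh8 (7.94), Tnnc2 (7.72) and Mylpf (8.19), for Ly6g6c (9.32), and for the squamous (-0.16) and muscle (-1.21) scores. It was also low for the class II genes H2-Ea (13.43) and H2-Ab1 (11.45) and high for Pdrg1 (11.08).

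AIRmax mouse 9 accounted for 10. It was high for Krt13 (11.63), Lor (12.75), Crct1 (10.18), Krt4 (10.04), Krt14 (9.38), Tnnt3 (10.25), Myh8 (12.48), Tnnc2 (12.11) and the squamous score (0.62), and low for Lrmp (8.94).

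AIRmax mouse 12 accounted for 6, all clock genes. It was high for Bhlhe40 (11.60), Dbp (15.10), Nr1d1 (11.04), Nr1d2 (11.40) and Per3 (10.58) and low for Arntl (8.47).

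AIRmin mouse 19 was high for Cxcr2 (9.18), Il1b (11.19), S100a9 (13.94) and Aqr (9.47). Single values were those of Ccn2 in AIRmin mouse 3 (15.15), Lrmp in AIRmin mouse 10 (9.71), Etfrf1 in AIRmin mouse 20 (11.55) and Mpg in AIRmin mouse 23 (8.42).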

How the results depend on the processing

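The line difference in saline mice called 1244 probes. The count was 810 on the authors' filtered probes, 3061 with array weights, 281 with the squamous score, 295 with the muscle score and 266 with both as covariates. It was 62 without mice of squamous score over 1, and 662 in the additive fit over both treatments, which was added after the data were seen. Leaving out 1 mouse gave 690 to 1386, with 690 without mouse 20, 767 without 10, 785 without 24 and 815 without 3. For the line difference in urethane mice 667 probes were called, 343 with only the arrays compared and 290 without the high squamous scores, and 451 to 716 without 1 mouse. The interaction with treatment gave 0 calls, 1 without the high squamous scores and 0 to 2 without 1 mouse, and that with sex 0 to 6.

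Of 84 called genes in the text, 15 kept their call under each alternative that tested them (6 of these were tested under all 27, the others missed 1 or 2 filters) and 56 without each mouse in turn. Some signs turned. With the squamous score as covariate the differences were Krt13 0.55, Lor 0.53, Crct1 0.26, Krt4 0.21 and Krt14 0.05. With the muscle score they were Tnnc2 0.17, Mylpf 0.03 and Psmb8 -0.05. With both they were Krt13 0.55, Lor 0.57, Crct1 0.28, Krt4 0.22, Krt14 0.08, Tnnc2 0.16, Mylpf 0.02 and Psmb8 -0.04. Without the high squamous scores they were Krt13 0.93, Lor 0.82, Crct1 0.66, Krtdap 0.12, Krt4 0.63, Krt14 0.37, Myh8 0.21, Tnnc2 0.29, Mylpf 0.12, Aldh3a1 0.10, Gsta1 0.02, Ly6g6c 0.04 and Psmb8 -0.05. In the additive fit they were Krt13 0.32, Crct1 0.26, Krtdap 0.02, Krt4 0.22, Krt14 0.04, Aldh3a1 0.01, Ly6g6c 0.15, Ly6g6e 0.10 and Psmb8 -0.00. The cause was not tested. No paired analysis was possible because no mouse number occurs more than once. Signals near 16 are close to the top of the range, and those near 7.9 to background.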

Other observations

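The split of AIRmax mice at H2-Ea and Abhd16a took another form in the urethane mice. There Abhd16a was 12.08 to 12.42 in all 6 AIRmax mice and 8.22 to 8.46 in the AIRmin mice. H2-Ea was 13.29 in AIRmax mouse 5 and 7.45 to 7.65 in the other 5, and 13.18 to 15.91 in AIRmin mice. Mouse 5 was thus high for both genes, which no saline mouse of either line was.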
